A study of Mus musculus with 4 samples.

Results

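Peaks of the transcription factor ATF4 in mouse regulatory T cells were examined at 9 basic leucine zipper genes of the BACH, CNC and MAF families. The genes were chosen by family: Bach1 and Bach2 (BACH), Nfe2l1, Nfe2l2 and Nfe2l3 (CNC, which encode NRF1, NRF2 and NRF3), and Maf, Maff, Mafg and Mafk (MAF). All peaks that the deposited list assigned to one of these 9 symbols were taken, at a promoter or not, which gave 9 of the 4544 peaks. They lay at 6 of the 9 genes.

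The study enriched CD4+CD25+ cells, the T cells that hold most of the regulatory lineage, from mouse spleen by the sample labels and from spleen and lymph nodes by the series' design text. There were 2 ATF4 immunoprecipitates and 2 inputs, all from cells fixed with formaldehyde, and the inputs were sheared chromatin set aside before the antibody was added. The labels give no genotype, strain, treatment or age, and the samples analysed here include none that lacked ATF4. The deposited result is 1 peak list on mouse build mm10, with no value per sample. No value below therefore has a replicate error, and no test between groups was possible.

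ATF4, like the genes described here, encodes a basic leucine zipper protein, and such proteins bind DNA as pairs. BACH1, BACH2 and the CNC proteins bind as partners of the small MAF proteins MAFF, MAFG and MAFK, which carry no activation domain of their own. The CNC pairs activate antioxidant and detoxifying genes, or proteasome genes in the case of NRF1, through antioxidant response elements, and BACH pairs occupy related elements and repress. In T cells BACH2 restrains effector differentiation, and the large MAF protein c-MAF, encoded by Maf, acts in helper and regulatory T cells.

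Only short stretches before the start sites could be read, since the sequences at hand were RefSeq promoter windows of build GRCm38.p6. These windows run from 250 bases before to 50 bases after a start site, 300 bases in all. Of the 9 genes, 8 had at least 1 window, 14 windows in all, and Maf had none. A peak overlapped 2 of the 14, those of Mafk and Bach1. The sequences below are shown because they are the bases before the start under or next to those peaks, and because 4 of the genes matched an antioxidant response element, searched as TGACNNNGC on both strands. They run 5′ to 3′ on the strand of the gene, and capitals mark a match.

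The first, chr5:139791436-139791535 on the plus strand, is the last 100 bases before the Mafk start, of which the last 49 lay under the Mafk peak. The second, chr16:87698854-87698953 on the plus strand, is the last 100 bases before the Bach1 start, of which the last 32 lay under the Bach1 peak. Next, chr2:75704814-75704913 on the minus strand, and chr11:120633698-120633797 on the minus strand, reach from 250 to 151 bases before the starts of Nfe2l2 and Mafg. The last, chr15:79346501-79346600 on the plus strand, reaches from 120 to 21 bases before the first of 3 Maff starts.
Mafk: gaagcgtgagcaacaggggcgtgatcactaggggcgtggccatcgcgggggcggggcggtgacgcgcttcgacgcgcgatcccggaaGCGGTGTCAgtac
Bach1: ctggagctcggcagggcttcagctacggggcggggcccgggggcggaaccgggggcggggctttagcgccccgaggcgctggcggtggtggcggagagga
Nfe2l2: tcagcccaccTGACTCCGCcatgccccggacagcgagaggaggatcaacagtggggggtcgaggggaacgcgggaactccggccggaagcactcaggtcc
Mafg: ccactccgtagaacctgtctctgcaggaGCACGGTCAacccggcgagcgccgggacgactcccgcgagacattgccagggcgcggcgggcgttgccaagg
Maff: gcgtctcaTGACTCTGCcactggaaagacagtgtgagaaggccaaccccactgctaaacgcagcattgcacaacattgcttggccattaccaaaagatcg

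Among the genes described, the antioxidant response element was matched at Nfe2l2, Maff, Mafg and Mafk, 4 of the 8 with a window, against 14.8% of the 17492 protein-coding genes with one. The Mafk match began 13 bases before the start and was the only one of the 4 that lay under a peak. The Nfe2l2 match began 240 bases before its start and stood 293 bases from the nearest peak. Those of Mafg and Maff were 9931 and 180200 bases from any peak. Within 100 bases on each side of the window centre, only the matches of Maff and Mafk were left, 2 of the 8 genes. The share of all genes with a window was then 10.3%.

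The composite element to which ATF4 binds with C/EBP proteins was searched as TGATGNAA, on both strands. It was matched in 0 of the 8 genes with a window, against 4.13% of all genes. For scale, the promoter of Chac1, a glutathione-degrading enzyme gene that is a well-known ATF4 target, holds such a match under a peak with a fold enrichment of 38.4. The following bases, chr2:119351022-119351121 on the plus strand, reach from 220 to 121 before the Chac1 start, and the capitals are the composite element.
Chac1: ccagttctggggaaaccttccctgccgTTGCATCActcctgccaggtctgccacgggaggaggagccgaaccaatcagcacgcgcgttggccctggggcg

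A full cyclic AMP response element, TGACGTCA, was matched at 1 of the 8 genes, Maff, 29 bases before its second start, against 2.54% of all genes. The AP-1 element TGANTCA was matched in 0 of 8, against 8.12%, and the extended MAF recognition element in 0 of 8, against 0.372%. All were searched on both strands. The AP-1 element is contained in the extended MAF element and can overlap an antioxidant response element. A match is a string of letters and not a binding site, and most of the peaks lay outside these windows. At Bach2 the table's start was 81.5 kb from the nearest peak.

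Fold enrichment in the list is the ChIP signal at a peak's highest point over the signal expected there, and both the fold and the −log10 q are the authors' values. The number of DNA fragments behind each value could be recovered. Under the formulas of MACS2, the peak caller named in the submitters' processing notes, a whole number of ChIP fragments gave both the deposited fold and the deposited p-value in 4544 of 4544 peaks. The p-value was met within 0.001 on the −log10 scale, or within a proportional tolerance for very large values. A second whole number met it in 5 peaks, none of them at these genes. Over the list the median was 38 ChIP fragments against 11.4 expected, the median fold 3.30 and the median −log10 q 5.71.

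The expected numbers moved in steps of 0.487, with 73.0% of the 4427 peaks expected below 60 on a whole step. In MACS2 such a step is what 1 fragment of the control counts for after scaling to the depth of the ChIP. At 8 of the 9 peaks described here the expected number was a whole number of steps, so control fragments could be counted too. Exact intervals at 95% are given below for the ratio of ChIP to scaled control fragments. They cover counting error only, and since a summit is the highest point of its peak, its count is a maximum.

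Of the 9 genes, 6 had a promoter peak, against 11.3% of the 21887 protein-coding genes, and the same 6 had any assigned peak, against 12.9%. Bach2 and Nfe2l2, 2 of the 9, had a peak in an intron, against 1.21% of genes. The same pair had 2 or more peaks, against 2.14%, and Nfe2l2 alone had 3, against 0.649%. All protein-coding genes stand in the background, silent ones too, so these shares do not compare the genes with other expressed genes. Both BACH genes had peaks, with 3 in all. Of the 3 CNC genes, 2 had peaks, with 4 in all, and of the 4 MAF genes, 2 had peaks, with 1 each.

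The median fold enrichment of the 9 peaks was 3.77, against 3.30 over all peaks, and 6 of the 9 were above that median of all peaks. They ranged from 2.42 to 5.12, and 0 of them were among the 10% of peaks with the highest fold. By family, the peaks of CNC genes ran from 2.44 to 5.12 with a median of 4.36, those of MAF genes were 3.90 and 4.19, and those of BACH genes ran from 2.42 to 3.48 with a median of 3.03. Of the 4 CNC peaks, 3 belong to Nfe2l2, and of the 3 BACH peaks, 2 belong to Bach2. These family medians therefore rest largely on single genes, and they mix promoter and intron peaks. For the 8 peaks with a ratio interval, all intervals held the range between 3.20 and 4.25. Differences between peaks or between families were not tested.

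**Figure D1:**
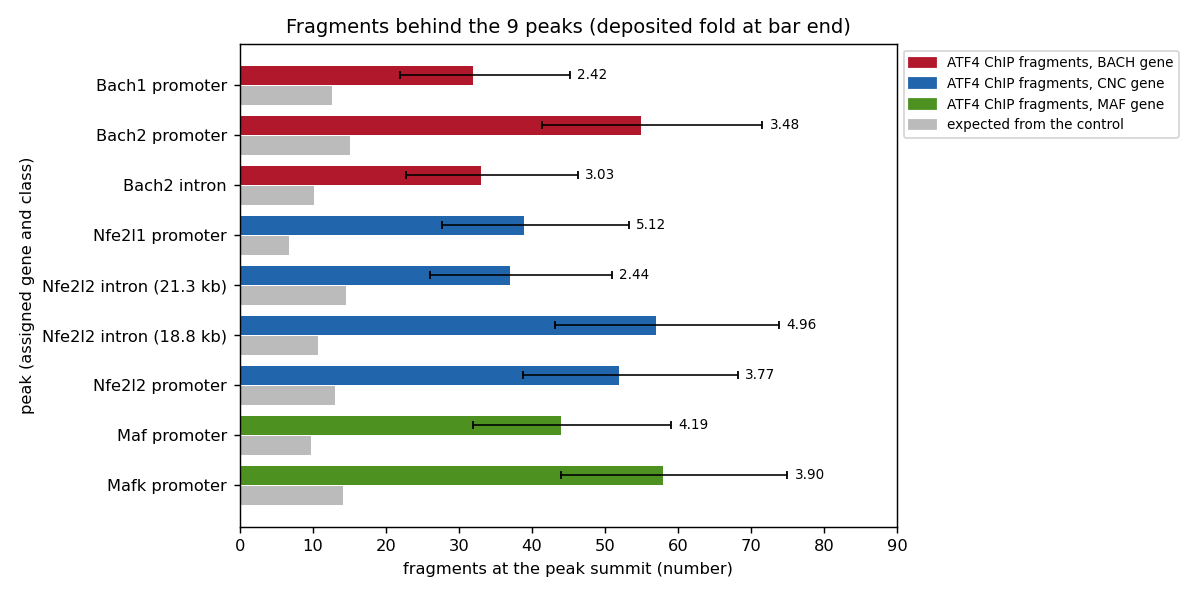
ATF4 ChIP fragments (coloured bars, exact 95% Poisson intervals) and expected fragments (grey bars) at the summit of each of the 9 peaks, with the deposited fold enrichment at the bar end. ChIP fragments ran from 32 to 58 and their intervals overlapped, while expected fragments ran from 6.81 at Nfe2l1 to 15.1 at the Bach2 promoter.

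Nfe2l1 had the highest fold enrichment of the 9 peaks and Nfe2l2 the most peaks. Nfe2l1 encodes NRF1, an endoplasmic reticulum-anchored factor that is released to raise proteasome genes. Its peak, at chromosome 11, 96822651 to 96822997, had a fold enrichment of 5.12 and ranked 509 of 4544, with a −log10 q of 13.3. It rested on 39 ChIP and 14 control fragments, a ratio of 5.73 (3.04 to 11.4).

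The list placed that peak in the promoter class, with its near edge 934 bp downstream of an internal start of the gene. RefSeq gives Nfe2l1 5 start sites on the minus strand. The peak was 6.97 kb from the outermost of them, so it lay within the gene and downstream of all 5. No peak touched any of the 5 starts.

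Nfe2l2 encodes NRF2, the main activator of antioxidant genes. Its promoter peak, at chromosome 2, 75703590 to 75704602, was 1013 bp wide, and 3.26% of all promoter peaks were 1 kb or wider. It began 61 bp downstream of the start, with its summit at 169 bp. Its fold enrichment was 3.77 with a −log10 q of 11.9, from 52 ChIP fragments (38.8 to 68.2) against 13.1 expected, which was not a whole number of control fragments.

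The other 2 Nfe2l2 peaks lay in the first intron. The one 18.8 kb from the start (75685517 to 75685897) had a fold enrichment of 4.96 and the highest −log10 q of the 9 peaks, 18.9, from 57 ChIP and 22 control fragments, a ratio of 5.33 (3.20 to 9.15). The one 21.3 kb from the start (75682967 to 75683318) had a fold enrichment of 2.44 with a −log10 q of 3.06, from 37 ChIP and 30 control fragments, a ratio of 2.53 (1.52 to 4.25). For comparison, intron peaks of the whole list had a median of 20 fragments against 4.38 expected and a median fold of 3.66. The Nfe2l2 intron peak of higher fold thus exceeded the Nfe2l2 promoter peak by both measures, in a comparison with no replicate error.

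Nfe2l3, which encodes NRF3, had no peak assigned to it, yet 3 peaks overlapped its span on chromosome 6, from 51432669 to 51458772. The list assigned them to Hnrnpa2b1, an RNA-binding protein gene whose span begins 1.66 kb beyond the end of Nfe2l3. The peak of highest fold, 6.93 at 51457153 to 51458058, was described by the list's own annotation as exon 4 of 4 of Nfe2l3. The other 2 had fold enrichments of 4.13, in intron 3 of 3, and 3.16, in the 3′ UTR class. They rested on few fragments, 26 against 2.90 expected, 14 against 2.63 and 16 against 4.38.

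These 3 peaks lay at the far end of Nfe2l3, the nearest of them 24.0 kb from its RefSeq start, and 11.2 to 12.9 kb from the assigned start of Hnrnpa2b1. Another 3 peaks of Hnrnpa2b1 followed within 3 kb of the Nfe2l3 end. Such a split between the gene named in the annotation and the gene assigned was frequent. It occurred in 225 of the 531 peaks whose annotation names a gene, or 42.4%. Counted by annotation, 7 of the 9 genes had a peak.

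Maf and Mafk were the 2 MAF genes with a peak. Mafk encodes a small MAF partner of the BACH and CNC proteins. Its peak, at chromosome 5, 139791487 to 139791763, overlapped the start site, with the summit 36 bp downstream, and covered the antioxidant response element shown above. It had a fold enrichment of 3.90 and a −log10 q of 14.1, from 58 ChIP and 29 control fragments, a ratio of 4.11 (2.59 to 6.66). That was the highest ChIP count of the 9 peaks.

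Maf encodes the large MAF protein c-MAF. Its peak, at chromosome 8, 115707291 to 115707874, was the only one of the 9 that lay upstream of the gene, from −980 to −397 bp relative to the start, with its summit at −885 bp. It had a fold enrichment of 4.19 and a −log10 q of 11.6, from 44 ChIP and 20 control fragments, a ratio of 4.52 (2.61 to 8.10).

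Maff and Mafg, the other small MAF genes, had no assigned peak. The nearest peak to the Maff span was 168 kb away, at Ddx17. The nearest to the Mafg span was 8.75 kb away, at the promoter of Pycr1, a proline synthesis gene, with a fold enrichment of 6.58 from 76 ChIP fragments against 10.7 expected. A gene with no peak in the list may have signal below the threshold of the peak caller, and how much it has cannot be read from this list.

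The 3 peaks of BACH genes, 2 of them at Bach2, had the lowest median fold of the 3 families. BACH1 is a heme-sensing repressor of antioxidant genes. The Bach1 peak, at chromosome 16, 87698922 to 87699106, overlapped the start site and was 185 bp wide. It had the lowest fold enrichment of the 9 peaks, 2.42, and was the only one with a −log10 q under 3, at 2.39. Of all peaks, 23.1% were under 3. It rested on 32 ChIP and 26 control fragments, a ratio of 2.53 (1.46 to 4.42).

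Bach2 had a promoter peak at chromosome 4, 32238496 to 32239545, 1050 bp wide, which began 55 bp downstream of the assigned start and had its summit at 897 bp. It had a fold enrichment of 3.48 and a −log10 q of 11.2, from 55 ChIP and 31 control fragments, a ratio of 3.65 (2.31 to 5.86). A second peak, at 32335562 to 32335966, lay in an intron 51.2 kb from the start of the transcript it was assigned to. Its fold enrichment was 3.03 and its −log10 q 4.71, from 33 ChIP and 21 control fragments, a ratio of 3.23 (1.81 to 5.87).

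Bach2 spans 348 kb and Bach1 34.4 kb. A long gene has more room for an intron peak, and of the 444 protein-coding genes at least as long as Bach2, 15 had one, or 3.38%.

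**Figure D2:**
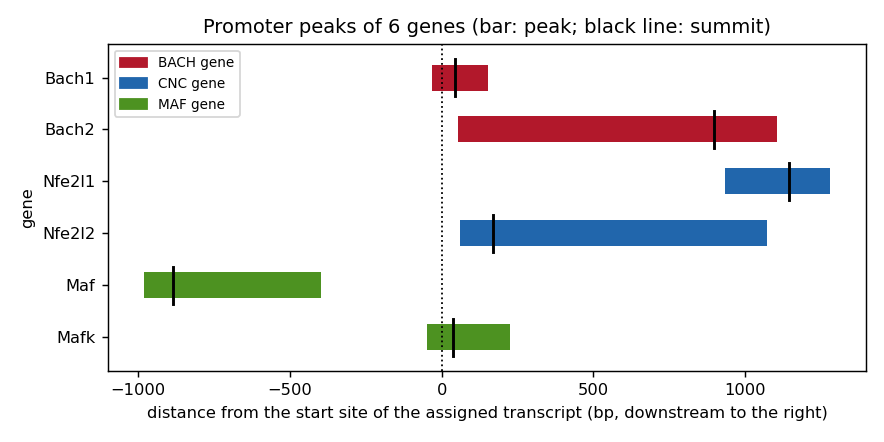
Extent of the 6 promoter peaks (bars) and their summits (black lines) in bp from the start site of the assigned transcript (dotted line), coloured by family. The Bach1 and Mafk peaks crossed the start, Maf lay upstream of it, and Bach2, Nfe2l1 and Nfe2l2 lay downstream, with summits at 897, 1146 and 169 bp.

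The 6 promoter peaks differed in where they sat. Those of Bach1 and Mafk overlapped the start, 2 of 6, against 60.2% of the 3375 promoter peaks of the list. Downstream of it lay 3, at Bach2, Nfe2l1 and Nfe2l2, and 1 upstream, at Maf. The shares of all promoter peaks on either side of the start were not counted. Of the 6, 2 were at least 1 kb wide, against 3.26% of all promoter peaks. The median fold enrichment of the 6 was 3.83, against 3.19 for all promoter peaks, and 5 of the 6 were above 3.19. Only Bach1 was below it.

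The order of the genes depended on the measure. By the fold of its strongest peak, Nfe2l1 came first with 5.12, followed by Nfe2l2 at 4.96, Maf at 4.19, Mafk at 3.90, Bach2 at 3.48 and Bach1 at 2.42. By −log10 q, Nfe2l2 came first at 18.9, then Mafk at 14.1, with Nfe2l1 at place 3 with 13.3. By ChIP fragments at the summit, Mafk was first with 58 and Nfe2l1 at place 5 with 39. Nfe2l1 had the fewest expected fragments of the 9 peaks, 6.81, and Bach2 the most, 15.1. Whether neighbours in any of these orders differ cannot be told without replicates.

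**Figure D3:**
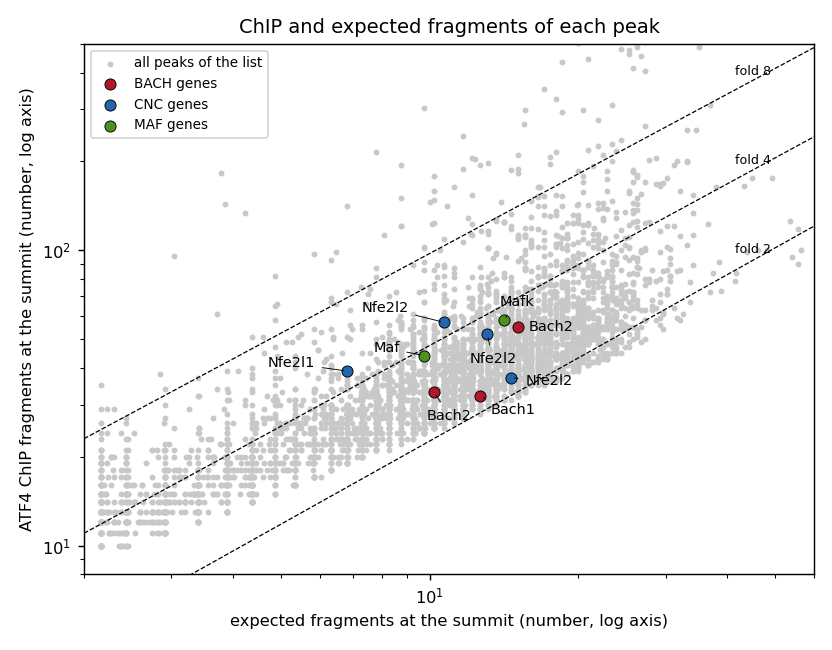
ATF4 ChIP fragments against expected fragments at the summit of each peak, both on log axes, for all peaks (grey) and the 9 described here (coloured by family), with dashed lines at fold enrichments of 2, 4 and 8. Of all peaks, 125 lie outside the plotted range. The 9 peaks lie within the body of the list, with Nfe2l1 at the lowest expected number of the 9.

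Genes around these factors were counted from lists drawn up with earlier results of these data known. Antioxidant response genes, among them genes that NRF2 activates and BACH1 represses, had promoter peaks at 10 of 28, or 35.7%, against 11.3% of genes. The highest folds were at the ferritin light chain gene Ftl1 at 4.44, with 120 ChIP fragments against 26.3 expected, the peroxiredoxin gene Prdx1 at 4.34, the catalase gene Cat at 4.03 and the ferritin heavy chain gene Fth1 at 3.88. Classic NRF2 targets without an assigned peak included Hmox1, Nqo1, Gclm, Slc7a11, Txnrd1 and Srxn1. The median fold of the list's peaks was 3.02, against 3.30 over all peaks.

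Genes of NRF2 and BACH control had promoter peaks at 3 of 10, against 11.3% of all protein-coding genes. These were the ubiquitin ligase genes Fbxo22 at 3.59 and Cul3 at 3.42, and the acetyltransferase gene Ep300 at 2.67. Keap1, which encodes the adaptor that holds NRF2 for degradation, and Sqstm1 had none.

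Genes of NRF1 processing and proteasome subunits had promoter peaks at 8 of 37, or 21.6%, against 11.3% of all protein-coding genes. The highest folds were a distal peak of Psmc6 at 5.52, and promoter peaks of Ngly1, whose enzyme deglycosylates NRF1, at 5.24, Psma6 at 4.18 and Psmb2 at 3.96. Ddi2, which encodes the protease that cleaves NRF1, had a peak at 2.36. Vcp and Sel1l had none.

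In effector T cell genes, of the kind that BACH2 holds back, promoter peaks were found at 6 of 16, against 11.3% of all protein-coding genes. The highest folds were at S100a4 at 5.19, Rora at 5.17 and Gata3 at 4.78, from 20, 52 and 55 ChIP fragments. Klrg1 had an intron peak at 3.78. Prdm1, a well-known gene repressed by BACH2, had no assigned peak. Of helper and regulatory T cell genes linked to MAF, 5 of 16 had a promoter peak, against the same 11.3%. Among them were Icos at 9.60, Bcl6 at 4.86 and Ctla4 at 4.01. Il10, Il4 and Il21 had none. Tigit stands in both of these lists.

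**Figure D4:**
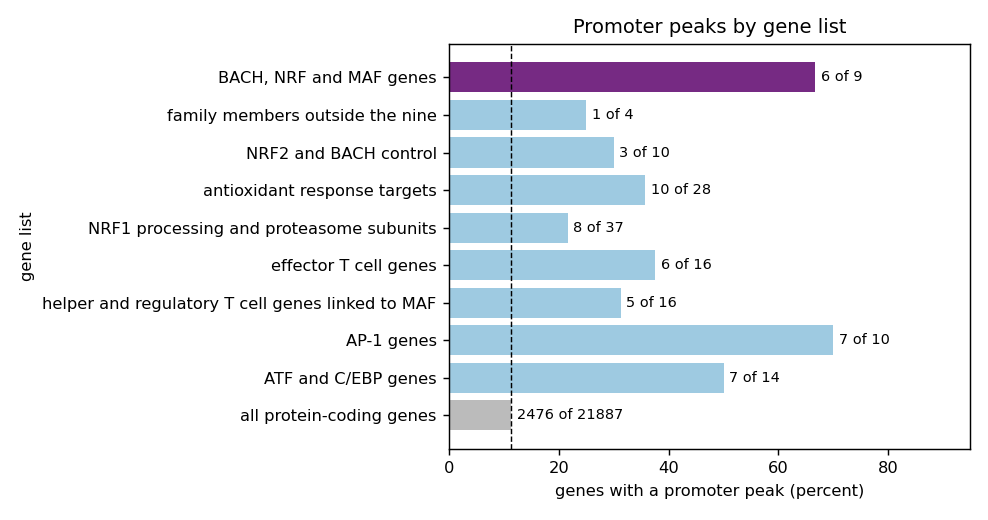
Percent of genes with a promoter peak in the 9 BACH, NRF and MAF genes, in each list around them and in all protein-coding genes (dashed line, 11.3%), with counts at the bar ends. The 9 genes stood at 6 of 9, and AP-1 genes at 7 of 10.

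Of close relatives outside the 9 genes, Nfe2, the CNC gene of blood cell and platelet formation, had 1 distal peak with a fold enrichment of 3.18, on 13 ChIP fragments against 3.41 expected. Its −log10 q was low, 1.53, at rank 4282 of 4544. The peak lay 849 bp outside the Nfe2 span, in the 1.51 kb gap to the neighbouring gene Hnrnpa1. Mafa and Nrl had none.

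Other leucine zipper families were counted from lists written after the peak list had been seen. AP-1 genes, which encode JUN, FOS and BATF proteins, had promoter peaks at 7 of 10 and reached 8.19 at Jund, where 310 ChIP fragments stood against 37.0 expected. ATF and C/EBP genes had them at 7 of 14 and reached 22.8 at Ddit3, while 11.3% of all protein-coding genes had a promoter peak. Of the 9 BACH, NRF and MAF genes 6 had one, and none of their peaks exceeded 58 fragments. The families overlapped in fold. The median was 3.45 over the 11 peaks of AP-1 genes, 5.58 over the 7 of ATF and C/EBP genes and 3.77 over the 9 described here. The lowest folds were 2.05, 3.22 and 2.42 in the same order. The differences between these families were not tested.

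As a check of the labelled cell type, 4 of 6 markers of T and regulatory T cells had an assigned peak, among them Foxp3 and Il2ra, while Cd3e and Cd4 had none. Of 3 B cell markers, Cd79a had 1 distal peak, and of 3 myeloid markers, 0 had a peak. Over all protein-coding genes 12.9% had an assigned peak, and 3 markers are too few to set a count against that share. A peak is not a measure of expression, so this count cannot give the purity of the cells.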

How the data were processed

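The data are 1 peak list from ATF4 ChIP-seq, with 2 immunoprecipitates and 2 inputs. Per the submitters' processing notes, Trim Galore, Bowtie2, MACS2 and deepTools were used with build mm10, without versions. The sources used here do not say whether replicates were pooled or which library was the control. The fold enrichment (a linear ratio), −log10 p, −log10 q, annotation and assigned gene of each peak were deposited by the authors in a MACS2 and ChIPseeker layout. All values are packed into 1 column of other kind, per the file headers. Starts, counted from 0, were raised by 1.

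ChIP fragments n and expected fragments λ were solved for each peak from fold = (n + 1)/(λ + 1) and the Poisson upper tail, a step tested on simulated data. Intervals are exact (Poisson for counts, Clopper-Pearson for ratios). Gene spans and promoter windows came from RefSeq tables of GRCm38.p6, the assembly of mm10. Depth per sample is unknown. No test was made, since there is 1 list and no value per sample. Named genes were the 9 genes with all their peaks, their relatives, up to 4 genes of each list with the highest fold, and Chac1. Some genes that this rule names are not reported here. Other genes named (Hnrnpa2b1, Pycr1, the AP-1, ATF and C/EBP genes and genes named for having no peak or for their role) were chosen after their values were seen. The genes, lists and alternatives were chosen with earlier results of these data known. Software was matplotlib 3.10.9, pandas 2.3.3, scipy 1.17.1 and numpy 2.4.6 under Python 3.11.15.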

Additional observations from a re-analysis of the deposited data

How the results depend on the processing

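With peaks of a −log10 q of at least 3, Bach1 dropped out, so that 1 of 2 BACH genes had a peak, and the median fold of the remaining peaks at these genes was 3.83. When peaks at or under the list's median fold were left out, again 1 BACH gene had a peak. The median was then 4.05, but a filter on fold can only raise it. The background fell to 6.78% of genes with any peak and 5.46% with a promoter peak. With peaks taken by overlap with the gene span widened by 3 kb, 15 peaks in place of 9 fell to these genes, 6 of them around the end of Nfe2l3, and the median was 3.90. Ordered by −log10 q, Nfe2l1 stood at place 3, and by ChIP fragments, an order added after the data were seen, at place 5. In the narrower motif window, 2 genes in place of 4 had a match. For the antioxidant response element the share of all genes was 10.3% in place of 14.8%. The number of genes with any peak was from 5 to 7 over all alternatives. The share of all protein-coding genes with any peak moved as well. It was 10.6% with the −log10 q limit, 16.7% with the widened span and 14.9% by nearest start, against 12.9% as reported. Assignment to the nearest protein-coding start gave 9 peaks too. No paired analysis was possible because the list holds no value per sample, and for the same reason no replicate could be left out. Counting error limits each comparison between these peaks, which rest on 32 to 58 ChIP fragments each, and the depth per sample is unknown.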

Other observations

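The CNC genes lie beside genes of the Hnrnpa and Cbx families, which encode RNA-binding proteins and heterochromatin proteins, and several of those neighbours had peaks. These genes were chosen after their values were seen. Hnrnpa2b1 lies 1.66 kb from Nfe2l3, Hnrnpa3 6.11 kb from Nfe2l2 and Hnrnpa1 1.51 kb from Nfe2, while Cbx3, Cbx1 and Cbx5 lie 11.4 kb, 8.43 kb and 8.31 kb from Nfe2l3, Nfe2l1 and Nfe2. Hnrnpa2b1 had 8 peaks, with the highest count over its start, 129 ChIP fragments against 23.8 expected and a fold enrichment of 5.23. Hnrnpa3 had 4 peaks, Hnrnpa1 and Cbx3 had 1 promoter peak each, and Cbx1 and Cbx5 had none.

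Both Hnrnpa2b1 and Hnrnpa3 were assigned peaks far from their starts, on the side of Nfe2l3 and Nfe2l2. The one of highest fold for Hnrnpa2b1 lay within Nfe2l3, as described above, and that for Hnrnpa3 was in the 3′ UTR class. Their folds, 6.93 and 6.42, came from 26 and 20 ChIP fragments over 2.90 and 2.27 expected. The highest folds among their promoter peaks were 5.23 and 2.40, from 129 and 55 fragments over 23.8 and 22.4 expected.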
